A study of Rattus norvegicus with 12 samples.

Results

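The heat shock proteins and the chaperones of the endoplasmic reticulum (ER) were followed as a list of 44 genes in organotypic cultures of rat keratinocytes exposed to UVB, to the osmolyte betaine or to both. The list holds 19 genes whose products act in the cytosol or nucleus, 3 whose products act in mitochondria and 22 whose products act in the ER. Each gene was found in the gene column of the array table by its symbol, by the symbol with a prediction suffix removed, by an older synonym or by its gene ID. At least 1 probe was found for 41 of them, and 35 entered the test, since a probe had to reach a detection p-value below 0.05 on 3 or more of the 12 arrays, among 10937 genes in all. These were 13 cytosolic, 3 mitochondrial and 19 ER genes.

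The cells were REK, an established rat epidermal keratinocyte line, so every culture comes from the same line. All groups were grown without feeder cells on a collagen-coated insert, raised to the air-liquid interface at day 3 and collected as a stratified layer at 2 weeks. Betaine + UVB cultures had 10 mM betaine for 11 days and 30 mJ/cm2 UVB 24 h before collection, UVB cultures had the irradiation alone, betaine cultures had the betaine alone, and control cultures had neither and were mock-irradiated. Each group had 3 cultures and each culture 1 array; the records do not say if the 3 came from separate experiments, so p-values cover the spread among these cultures, which may be technical.

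Chaperones bind unfolded or partly made proteins, keep them from aggregating and, in the HSP70 and HSP90 families, use cycles of ATP binding and release to help them fold. In the cytosol their genes are raised by heat shock factors when unfolded protein builds up. In the ER the same need is read by the sensors PERK, IRE1 and ATF6, which together make up the unfolded protein response, and keratinocytes that differentiate are known to engage it.

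Levels are given as log2 normalized intensity and differences as log2 units; a level is comparable between groups for 1 gene but not between genes, since each probe binds with its own strength. Values after ± are standard errors of a limma fit over all genes with 3 cultures per group, and a gene was called at a Benjamini-Hochberg adjusted p under 0.05 over the 10937 genes. An averaged UVB effect is the mean of the UVB differences without and with betaine, and rests on the same arrays as those 2 comparisons. Each array reads a whole epidermal layer, in which fewer cells of a kind and less RNA per cell cannot be told apart.

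Raw array medians ran from 95.9 to 117.7, and 46.0 to 47.8% of the 22523 probes were detected on an array. Arrays of 1 group correlated at 0.987 to 0.997 over all genes and arrays of different groups at 0.980 to 0.995; betaine C had the lowest mean correlation with its own group. All 10 keratinocyte markers with a probe were detected on 12 of 12 arrays. None of 7 fibroblast or 3 endothelial markers was detected on all arrays. Cd3e and Cd68 of 5 leukocyte markers, Mlana and Pmel of 3 melanocyte markers and Krt20 of 3 Merkel cell markers were. The cultures came from a keratinocyte line, so these signals do not show that such cells were present, and their source was not tested.

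Several of the best-known heat-inducible genes gave no usable value. Hsf1, the main heat shock factor, Hspa1a, an inducible HSP70, and Hspa8, the constitutive cytosolic HSP70, were not analysed here. The probe for Hspa1b, the second inducible HSP70, was detected on 0 of 12 arrays, with raw intensities of 72.3 to 93.1. The probes for Hsph1, an HSP110 nucleotide exchange factor, Ahsa1, an activator of HSP90, and the ER sensors Ern1 (IRE1) and Atf6 were also detected on 0 of 12 arrays, and that for Hyou1, the large ER HSP70, on 2 of 12. Edem1 was detected on 5 of 12 arrays, Hsp90ab1 on 6 of 12 and Hspa2 on 11 of 12, so their values lie near background.

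At 24 h after UVB, 5 chaperone genes were higher and 1 lower when the effect was averaged over the betaine states. Hspa2, an HSP70 best known from the testis, rose by 0.68 ± 0.12, Hsp90aa1, the inducible cytosolic HSP90, by 0.49 ± 0.08, Hsp90b1, the HSP90 of the ER (GRP94), by 0.27 ± 0.06, Creld2, an ER stress-induced factor of disulfide chemistry, by 0.27 ± 0.07, and Hspd1, the mitochondrial HSP60, by 0.23 ± 0.07. Eif2ak3, which encodes the sensor PERK, fell by 0.29 ± 0.06. These 6 of 35 make up 17.1%, beside 11.2% of all genes tested (6.08% higher and 5.16% lower), and 13 of 35 (37.1%) had an unadjusted p under 0.05, beside 24.3% of all genes. The median difference was 0.04 over the 35 and −0.01 over all genes. With each array scaled only to its median, 2 of the 35 rose and 1 fell, Hspa2, Hsp90aa1 and Eif2ak3, beside 12.9% of all genes. Of all calls 37.3% were then higher, against 54.1% here. With control A and betaine C, which stood apart from their groups for several members, both left out, 9 of 35 passed, 5 higher and 4 lower, beside 16.6% of all genes; Creld2 was not among the 9, and Hspa9, Cryab, Dnajb4 and Sdf2l1 were added.

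In the separate comparisons fewer were called. Without betaine, UVB against control called 2 of 35, Hspa2 (higher) and Eif2ak3 (lower), beside 4.96% of all genes, 2.97% higher and 1.98% lower. Under median scaling 32.1% of all calls in this comparison were higher, against 60.0% here. With betaine, betaine + UVB against betaine called 3 of 35, all higher, Hspa2, Hsp90aa1 and Hspa9, beside 6.14% of all genes, 3.87% higher and 2.28% lower. In each of these 2 comparisons 9 of 35 had an unadjusted p under 0.05, 25.7%, beside 17.7 and 20.3% of all genes. The count without betaine was 0 when control A, control B, UVB B or UVB C was left out (2.88 to 3.29% of all genes). It was 1 without betaine A, UVB A or betaine + UVB B (3.32 to 4.05%), and 4 without betaine C (6.48%). The count with betaine was 1 when betaine + UVB A, B or C was left out (3.35 to 3.96% of all genes) and 5 without control A (6.65%). With control A and betaine C both left out the counts were 1 without betaine (4.96% of all genes) and 5 with it (11.1%). The 2 comparisons share no array, and 22 of 35 members (62.9%) had the same sign in both, beside 61.6% of all genes tested.

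**Figure D1:**
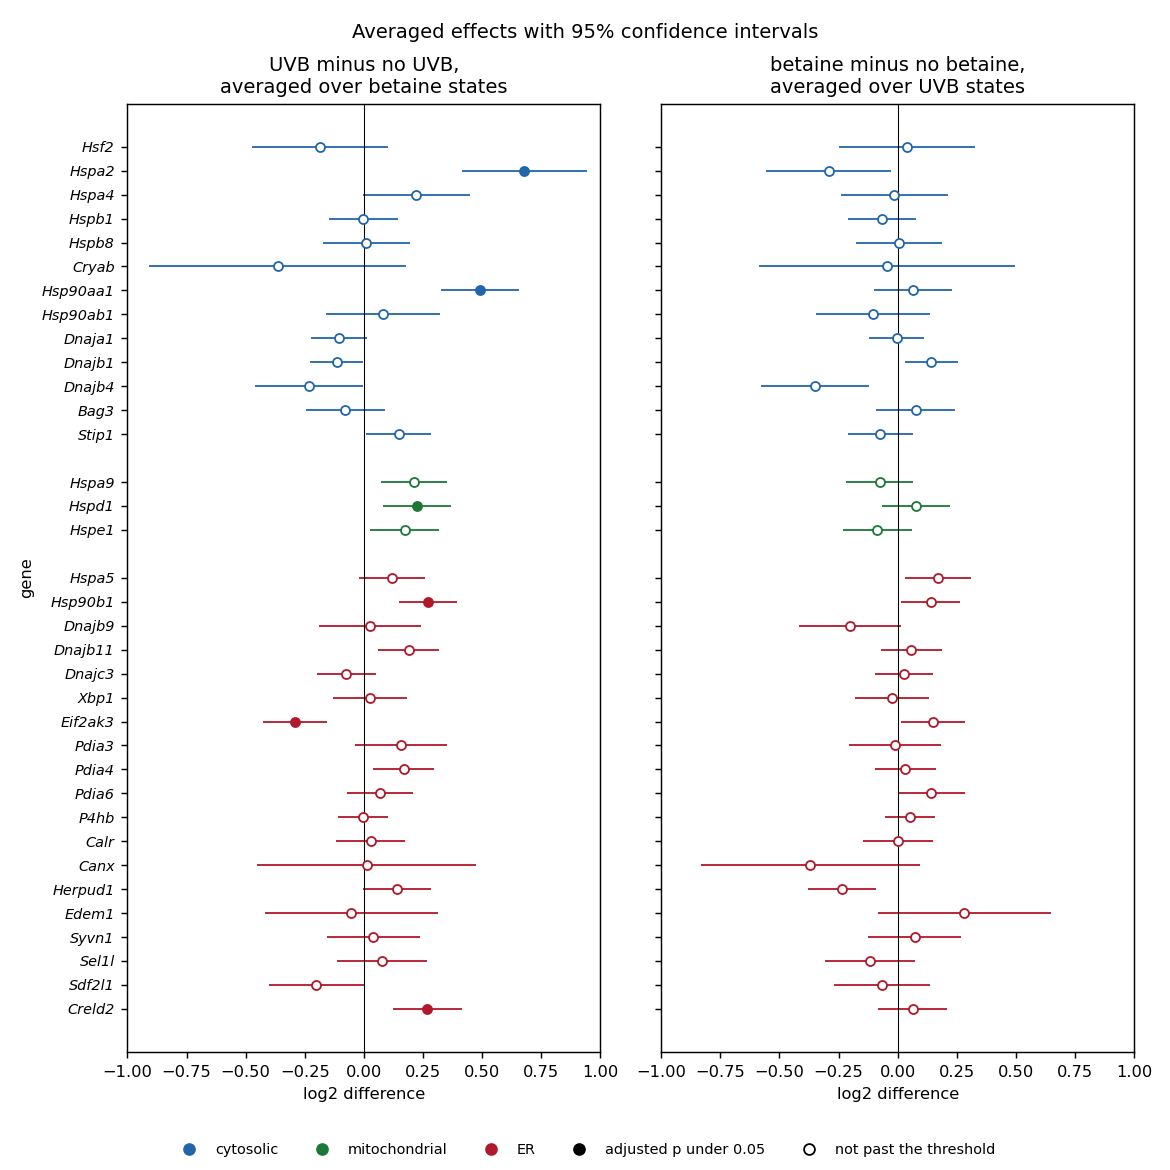
Averaged UVB effect (left) and averaged betaine effect (right) of the 35 chaperone genes tested, as log2 differences on the horizontal axis with 95% confidence intervals, grouped by cytosol, mitochondria and ER; filled points passed an adjusted p of 0.05. Under UVB 5 filled points lie to the right of 0 and 1 to the left, from 0.68 for Hspa2 to −0.29 for Eif2ak3, and no point is filled under betaine.

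Promoters were looked at in the RefSeq table of the rat build GRCr8, which gives 300 bases from 250 before to 50 after a gene's start. Entries were found for 35 of the 44 members; those without were Hsf1, Hspa1b, Cryab, Hsp90aa1, Dnajb4, Ern1, Atf6, Pdia3 and Pdia6. A heat shock element was searched as GAANNTTC or TTCNNGAA, and the core of the ER stress element as CCACG or CGTGG; these pairs cover both strands, and N is any base. The heat shock element was in 9 of 14 cytosolic, 3 of 3 mitochondrial and 2 of 18 ER promoters, against 15.4% of all 27457 promoters. The windows of Hspd1 and Hspe1 overlap by 211 bases, which hold all Hspd1 matches to either motif. The mitochondrial counts of both motifs therefore include the same sites more than once. The ER stress core was in 6 of 14 cytosolic, 3 of 3 mitochondrial and 17 of 18 ER promoters, against 32.5% of all promoters, but the median GC content was 61.3% in the cytosolic, 70.7% in the mitochondrial and 64.7% in the ER promoters, against 52.3% in all promoters, and the part of base composition in these shares was not tested. The promoters of the members called under UVB are printed with each compartment, 5′ to 3′ on the gene's strand, with matches to either motif in capitals; a match describes the letters and does not show that a factor binds there.

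Among the 13 cytosolic genes, Hspa2 and Hsp90aa1 rose with UVB and none fell. That is 2 of 13 (15.4%) averaged over betaine states, beside 11.2% of all genes. The median difference was −0.0023 over the 13, and 6 of 13 (46.2%) were above 0, beside 46.3% of all genes. Hspa2 had 6.56, 6.21 and 6.26 in betaine + UVB cultures and 5.70, 5.92 and 5.38 in betaine cultures, and 6.51, 6.51 and 6.89 in UVB cultures and 5.73, 5.90 and 6.24 in control cultures. Within each betaine state all 3 irradiated cultures lay above all 3 unirradiated ones. The difference was 0.68 ± 0.17 with betaine (adjusted p = 0.0373) and 0.68 ± 0.17 without (adjusted p = 0.0435), a 1.60-fold averaged effect (95% interval 0.41 to 0.94 log2, adjusted p = 0.00298) that ranked 277th in size among all genes. The averaged effect stayed called with any 1 array left out, but the comparison without betaine lost its call in 8 of 12 such fits (adjusted p up to 0.160, without UVB C) and that with betaine in 7 of 12 (up to 0.144, without betaine + UVB A). In the authors' processed values Hspa2 was also called in the averaged effect, with an adjusted p of 0.0119. The separate comparisons were not called there (adjusted p = 0.0831 without betaine and 0.0975 with it). They were also not called with no detection filter (0.0672 and 0.0623) or with the replicate block (0.0747 and 0.0637).

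The Hspa2 promoter is shown as that of a member called in both betaine states in the values used here. The averaged effect of Hspa2 was above that of Hsp90aa1 in the values used here and below it in the authors' processed values, at 0.15 for Hspa2 and 0.39 for Hsp90aa1. The promoter lies at chr6:100864192-100864491 (plus strand) and holds 1 match to the heat shock element and 1 to the ER stress core.
Hspa2: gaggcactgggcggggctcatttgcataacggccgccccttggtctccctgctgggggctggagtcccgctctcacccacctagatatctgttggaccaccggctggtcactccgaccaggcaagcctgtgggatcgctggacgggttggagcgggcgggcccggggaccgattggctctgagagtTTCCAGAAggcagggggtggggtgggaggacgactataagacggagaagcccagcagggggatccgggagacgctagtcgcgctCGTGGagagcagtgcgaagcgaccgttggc

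Hsp90aa1 had 9.89, 9.72 and 10.07 in betaine + UVB cultures and 9.23, 9.30 and 9.42 in betaine cultures. The irradiated cultures without betaine had 9.71, 9.69 and 9.82, and the control cultures 9.45, 9.38 and 9.17. In both betaine states the irradiated and unirradiated cultures did not overlap. The difference was 0.57 ± 0.11 with betaine (adjusted p = 0.00717) and 0.41 ± 0.11 without (adjusted p = 0.0535), and the averaged effect was 1.41-fold (adjusted p = 0.00119). The call with betaine and the averaged call held with any 1 array left out, and the difference without betaine passed under 7 of the alternatives, with adjusted p values of 0.0130 to 0.0494.

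The other 11 cytosolic genes had averaged UVB differences of −0.36 to 0.22, none called. Hspa4, an HSP110-type exchange factor, had the highest, 0.22 ± 0.10 (adjusted p = 0.215), and Stip1 (HOP), which links HSP70 to HSP90, had 0.15 ± 0.06 (adjusted p = 0.177). The J-domain genes that deliver clients to HSP70 were all below 0, Dnaja1 at −0.11 ± 0.05, Dnajb1 at −0.11 ± 0.05 and Dnajb4 at −0.23 ± 0.10, with adjusted p values of 0.196 to 0.259. Dnajb4 had 8.29, 8.47 and 8.33 in betaine + UVB cultures, 8.82, 8.68 and 8.60 in UVB cultures, 8.77, 8.80 and 8.19 in betaine cultures and 8.85, 9.10 and 8.89 in control cultures, and betaine C was the lowest of the 12. Without betaine C the averaged UVB difference of Dnajb4 was −0.33 (adjusted p = 0.00951), and with array weights it was −0.28 (adjusted p = 0.0129). Dnajb1 was called lower in the authors' processed values (−0.13, adjusted p = 0.0406) and with array weights (−0.13, adjusted p = 0.0480). The small heat shock proteins Hspb1 (HSP27), abundant in upper epidermal layers, and Hspb8 had averaged UVB differences of −0.0023 and 0.0091. The HSP70 co-chaperone Bag3 had −0.08, and Hsf2, a second heat shock factor, −0.19.

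**Figure D2:**
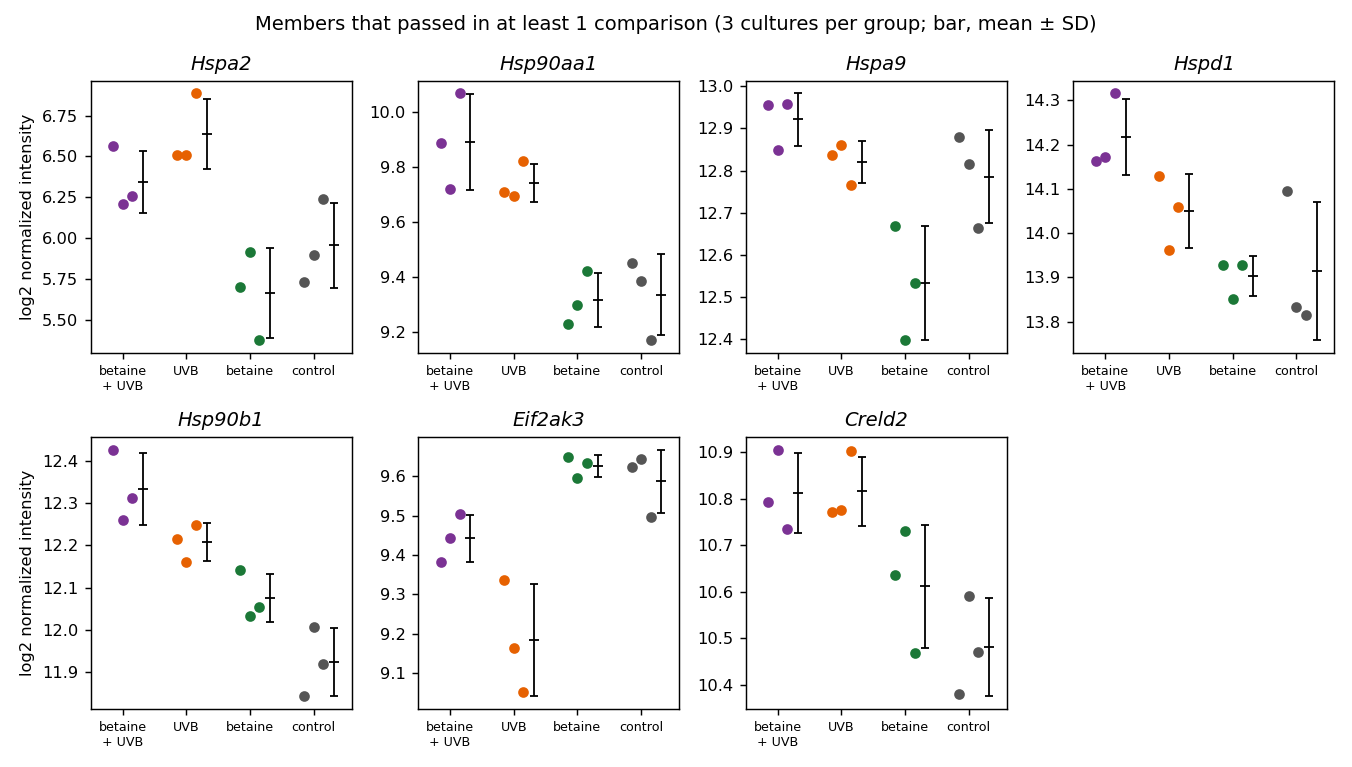
Log2 normalized intensity in each culture (points, 3 per group; bars, mean ± SD) of the 7 members called in at least 1 comparison, with betaine + UVB, UVB, betaine and control from left to right. The irradiated cultures of Hspa2, Hsp90aa1, Hsp90b1 and Creld2 lie above their unirradiated counterparts in both betaine states, those of Eif2ak3 below, while Hspa9 and Hspd1 overlap between UVB and control.

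The 3 mitochondrial genes had averaged UVB differences of 0.17 to 0.23, and 1 of 3, Hspd1, passed, beside 11.2% of all genes. Hspd1 (HSP60) and Hspe1 (HSP10) form the folding chamber of the matrix and its lid, and Hspa9 (mortalin) is the HSP70 that pulls proteins in. All 3 had an unadjusted p under 0.05 in betaine + UVB against betaine, beside 20.3% of all genes, with differences of 0.23 to 0.39. In UVB against control 0 of 3 did, beside 17.7% of all genes, with differences of 0.03 to 0.14. Under median scaling the differences of Hspa9 and Hspe1 in UVB against control were −0.05 and −0.02.

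Hspa9 had 12.96, 12.85 and 12.96 in betaine + UVB cultures and 12.67, 12.40 and 12.53 in betaine cultures, with no overlap. In UVB cultures it had 12.84, 12.86 and 12.77 and in control cultures 12.88, 12.81 and 12.66, which overlapped. The difference was 0.39 ± 0.09 with betaine, 1.31-fold (adjusted p = 0.0260), and 0.03 ± 0.09 without (adjusted p = 0.890); the difference between these effects had an unadjusted p of 0.0182 and an adjusted p of 0.587. The call for Hspa9 was lost without betaine B (adjusted p = 0.113) and without any 1 of betaine + UVB A, B or C (adjusted p = 0.0506 to 0.102). Betaine cultures were the lowest group, and their difference from control was −0.25 ± 0.09 (adjusted p = 0.299). The averaged UVB difference of Hspa9 was not called in the values used here. It was called without background correction (0.21, adjusted p = 0.0318) and in the authors' processed values (0.22, adjusted p = 0.0224). It was also called with the stricter detection filter (0.21, adjusted p = 0.0410) and with array weights (0.21, adjusted p = 0.0231).

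Hspd1 had 14.16, 14.17 and 14.32 in betaine + UVB cultures and 13.93, 13.85 and 13.93 in betaine cultures, and 14.13, 13.96 and 14.06 in UVB cultures and 14.09, 13.83 and 13.82 in control cultures. Control A, the highest control culture, overlapped the UVB cultures. Its averaged UVB difference was 0.23 ± 0.07 (adjusted p = 0.0494) and was lost in 11 of 12 fits that left out 1 array (adjusted p up to 0.120). A second Hspd1 probe gave −0.14 ± 0.07 (unadjusted p = 0.0866), and the mean over both probes 0.04 (adjusted p = 0.686). That second probe lay near background, with a median raw intensity of 123 against 16676 for the one used, and was detected on 11 of 12 arrays. Hspe1 had 11.48, 11.50 and 11.46 in betaine + UVB cultures, 11.42, 11.43 and 11.68 in UVB cultures, 11.32, 11.29 and 11.14 in betaine cultures and 11.40, 11.48 and 11.29 in control cultures. Its averaged UVB difference was 0.17 ± 0.07 (adjusted p = 0.131), with no overlap between betaine + UVB and betaine.

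The promoters of Hspa9 and Hspd1 are shown as those of the mitochondrial members called, with 2 and 3 matches to the heat shock element and 2 matches each to the ER stress core. The 2 ER stress core matches of Hspa9 overlap each other, as do the 3 heat shock element matches of Hspd1, so they are not separate sites. Hspa9 lies at chr18:26828349-26828648 (minus strand) and Hspd1 at chr9:64083988-64084287 (minus strand). Hspd1 and Hspe1 start head to head on chromosome 9, and their 300-base windows overlap by 211 bases.
Hspa9: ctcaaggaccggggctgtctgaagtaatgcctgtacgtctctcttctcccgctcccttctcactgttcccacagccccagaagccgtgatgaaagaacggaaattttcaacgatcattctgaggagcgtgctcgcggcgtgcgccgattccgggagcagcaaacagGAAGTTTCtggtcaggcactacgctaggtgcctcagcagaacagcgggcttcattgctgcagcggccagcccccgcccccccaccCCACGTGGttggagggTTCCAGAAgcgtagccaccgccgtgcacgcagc
Hspd1: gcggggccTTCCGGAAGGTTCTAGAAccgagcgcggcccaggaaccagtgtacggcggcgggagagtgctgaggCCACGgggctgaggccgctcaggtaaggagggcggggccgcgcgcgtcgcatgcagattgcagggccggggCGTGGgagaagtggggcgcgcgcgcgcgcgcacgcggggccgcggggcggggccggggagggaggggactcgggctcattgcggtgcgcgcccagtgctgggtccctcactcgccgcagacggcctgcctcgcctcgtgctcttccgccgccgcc

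Of the 19 ER genes, Hsp90b1 and Creld2 rose with UVB and Eif2ak3 fell when averaged over the betaine states, 3 of 19. That is 15.8% called, beside 11.2% of all genes. Their median difference was 0.04, and 14 of 19 (73.7%) were above 0, beside 46.3% of all genes. Of the main luminal chaperones, Hsp90b1 had 12.43, 12.26 and 12.31 in betaine + UVB cultures and 12.14, 12.03 and 12.05 in betaine cultures, and 12.22, 12.16 and 12.25 in UVB cultures and 11.84, 12.01 and 11.92 in control cultures. The group means ran in the order betaine + UVB, UVB, betaine, control, with no overlap between neighbouring groups, although betaine + UVB against UVB and betaine against control were not called (adjusted p = 0.456 and 0.510). The averaged UVB effect was 1.21-fold (adjusted p = 0.00795) and stayed called with any 1 array left out; it was 0.26 ± 0.08 with betaine and 0.29 ± 0.08 without (adjusted p = 0.0866 and 0.0663). Under median scaling the averaged difference of Hsp90b1 was 0.22 (adjusted p = 0.0594).

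Hspa5 (BiP), the HSP70 of the ER and the standard readout of the unfolded protein response, was called in none of the comparisons in the values used here. It had 13.39, 13.41 and 13.35 in betaine + UVB cultures, 13.38, 13.46 and 13.37 in UVB cultures, 13.41, 13.49 and 13.46 in betaine cultures and 12.89, 13.18 and 13.21 in control cultures. The 3 control cultures were the lowest of the 12, and control A was the lowest of these. Its difference was 0.31 ± 0.09 in UVB against control (adjusted p = 0.0814), 0.36 ± 0.09 in betaine against control (adjusted p = 0.115) and −0.07 ± 0.09 in betaine + UVB against betaine (adjusted p = 0.726), none called. The interaction (UVB difference in betaine-grown cultures minus that in the others) was −0.38 ± 0.13 (unadjusted p = 0.0120, adjusted p = 0.574). In UVB against control Hspa5 was called without background correction (0.31, adjusted p = 0.0466) and in the authors' processed values (0.31, adjusted p = 0.0346), while without control A it differed by 0.21 (adjusted p = 0.227).

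Creld2 had 10.79, 10.91 and 10.74 in betaine + UVB cultures and 10.64, 10.73 and 10.47 in betaine cultures. In UVB cultures it had 10.77, 10.77 and 10.90, and in control cultures 10.38, 10.59 and 10.47. The irradiated cultures lay above the unirradiated ones in both betaine states, narrowly so with betaine. The averaged difference was 0.27 ± 0.07 (adjusted p = 0.0220); it was 0.18 under median scaling (adjusted p = 0.152), and its adjusted p was 0.0502 without control C, 0.0540 without UVB C and 0.0606 without betaine + UVB B.

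Eif2ak3, which phosphorylates eIF2alpha and slows translation, was the only member called lower after UVB. It had 9.38, 9.44 and 9.50 in betaine + UVB cultures and 9.65, 9.59 and 9.63 in betaine cultures, and 9.34, 9.16 and 9.05 in UVB cultures and 9.62, 9.64 and 9.50 in control cultures. Within each betaine state all 3 irradiated cultures lay below all 3 unirradiated ones. The difference was −0.18 ± 0.09 with betaine (adjusted p = 0.270) and −0.40 ± 0.09 without (adjusted p = 0.0215), and the averaged effect −0.29 ± 0.06 (adjusted p = 0.00888). The averaged call held with any 1 array left out; the call without betaine was lost without control A, control B, UVB B or UVB C (adjusted p = 0.0722 to 0.0838). In betaine + UVB against UVB the difference was 0.26 ± 0.09 (unadjusted p = 0.0124, adjusted p = 0.188).

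The promoters of Hsp90b1, Creld2 and Eif2ak3 are shown as those of the ER members called. The ER stress core was in 17 of 18 ER promoters, and a link between matches and the direction of change was not tested. Hsp90b1, at chr7:23012244-23012543 (minus strand), and Creld2, at chr7:121789134-121789433 (plus strand), each hold 2 matches to the ER stress core and 0 to the heat shock element, while Eif2ak3, at chr4:104363622-104363921 (plus strand), holds 0 and 2.
Hsp90b1: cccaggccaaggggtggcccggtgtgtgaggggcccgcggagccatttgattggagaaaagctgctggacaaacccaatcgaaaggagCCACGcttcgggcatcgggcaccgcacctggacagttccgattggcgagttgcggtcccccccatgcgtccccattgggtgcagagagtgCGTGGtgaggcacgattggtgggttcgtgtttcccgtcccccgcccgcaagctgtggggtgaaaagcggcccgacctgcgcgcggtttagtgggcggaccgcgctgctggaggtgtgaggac
Creld2: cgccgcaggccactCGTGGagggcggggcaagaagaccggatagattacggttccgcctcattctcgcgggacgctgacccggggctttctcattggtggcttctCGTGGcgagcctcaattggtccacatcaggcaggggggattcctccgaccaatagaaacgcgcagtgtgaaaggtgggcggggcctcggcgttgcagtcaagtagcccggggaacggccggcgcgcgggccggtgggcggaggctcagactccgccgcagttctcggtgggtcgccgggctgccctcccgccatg
Eif2ak3: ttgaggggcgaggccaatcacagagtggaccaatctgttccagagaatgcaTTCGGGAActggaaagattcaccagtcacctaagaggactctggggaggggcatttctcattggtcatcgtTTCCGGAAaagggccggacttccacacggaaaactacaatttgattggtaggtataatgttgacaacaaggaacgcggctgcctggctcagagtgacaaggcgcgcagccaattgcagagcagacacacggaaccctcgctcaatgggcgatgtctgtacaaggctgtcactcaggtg

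The other 15 ER genes besides Hspa5 had averaged UVB differences of −0.20 to 0.19, none called. Dnajb11 (ERdj3), a J-domain partner of BiP, had 0.19 ± 0.06 (adjusted p = 0.0646) and Pdia4 (ERp72), a disulfide isomerase, 0.17 ± 0.06 (adjusted p = 0.0989). Dnajb11 was called higher without background correction, in the authors' processed values, with the stricter detection filter, with array weights and without betaine B, with differences of 0.17 to 0.23 and adjusted p values of 0.0148 to 0.0450. Pdia4 was called higher in the authors' processed values (adjusted p = 0.0199) and with array weights (adjusted p = 0.0353). The disulfide isomerases Pdia3, Pdia6 and P4hb had 0.16, 0.07 and −0.01, and P4hb had the lowest within-group SD of the 35, 0.03 log2. The lectin chaperones of glycoprotein folding, Calr and Canx, had 0.03 and 0.01. Xbp1, the transcription factor spliced by IRE1, had 0.03, and its target Dnajb9 (ERdj4) 0.02. Of the genes of ER-associated degradation, Herpud1 had 0.14, Sel1l 0.08, Syvn1 0.04 and Edem1 −0.05. Dnajc3 (p58IPK), an inhibitor of PERK, had −0.07, and Sdf2l1, a partner of the ER J-proteins, −0.20 (adjusted p = 0.206). Sdf2l1 was called lower with array weights (−0.295, adjusted p = 0.00794) and with control A and betaine C both left out (−0.305, adjusted p = 0.0278).

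**Figure D3:**
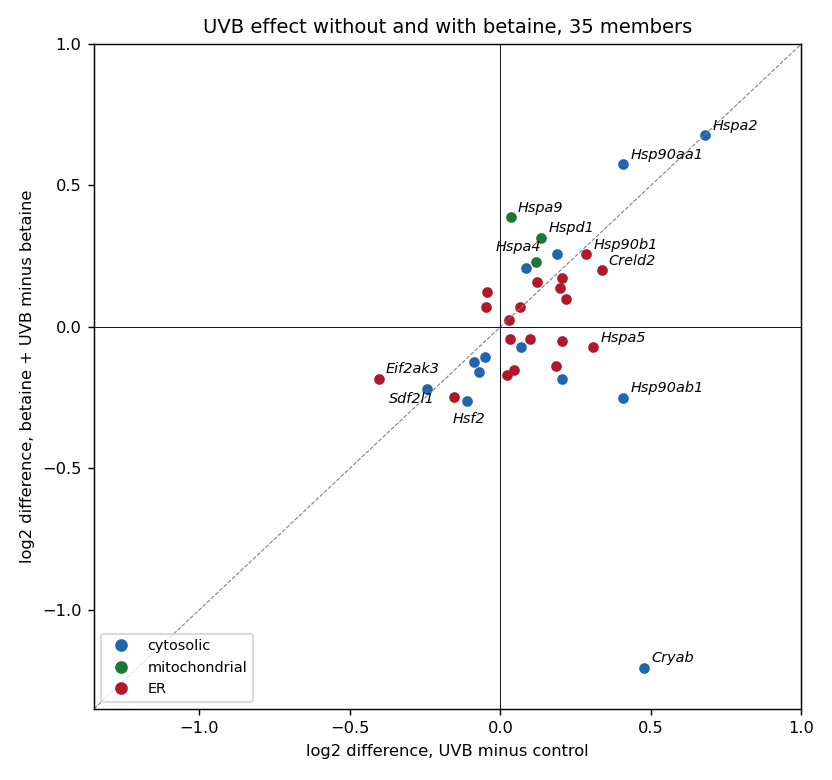
UVB effect of the 35 chaperone genes without betaine (horizontal axis, UVB minus control) and with betaine (vertical axis, betaine + UVB minus betaine), both as log2 differences; the dashed line marks equal effects. Hspa2, Hsp90aa1 and Hsp90b1 lie near the line at the upper right, Eif2ak3 at the lower left, and Cryab far below it at 0.48 and −1.21.

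Betaine changed none of the 35 genes at the threshold. In limma 0 of 35 passed in betaine against control, beside 0.896% of all genes, 0 of 35 in betaine + UVB against UVB, beside 0.887%, and 0 of 35 in the averaged betaine effect, beside 3.25%. At an unadjusted p under 0.05 there were 6 of 35 (17.1%) in betaine against control, beside 11.4% of all genes, 6 of 35 (17.1%) in betaine + UVB against UVB, beside 17.0%, and 8 of 35 (22.9%) in the averaged effect, beside 19.0%. With array weights the counts were 2, 1 and 5 of 35, where 3.93, 6.97 and 11.6% of all genes were called. The median averaged difference was 0.0015 over the 35.

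In the cytosol the averaged betaine differences were largest for Dnajb4, −0.35 ± 0.10 (95% interval −0.58 to −0.12, adjusted p = 0.0980), and Hspa2, −0.29 ± 0.12 (adjusted p = 0.219). The Dnajb4 difference was −0.34 in irradiated and −0.36 in unirradiated cultures, and neither pair of groups overlapped. The unirradiated difference of Dnajb4 was −0.16 without betaine C (adjusted p = 0.652). Dnajb1 (HSP40) had 0.14 ± 0.05 (adjusted p = 0.168). In mitochondria the averaged betaine differences were −0.09 to 0.08.

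In the ER the fitted differences were largest for Canx and Edem1, the members with the widest spread in the ER; Edem1 lay near background. Canx had 10.41, 10.61 and 10.29 in betaine + UVB cultures, 10.78, 10.93 and 10.53 in UVB cultures, 10.73, 10.89 and 9.47 in betaine cultures and 10.46, 10.90 and 11.03 in control cultures. Betaine C was the lowest, far from the other 2 of its group. The averaged difference of Canx was −0.37 ± 0.21 (adjusted p = 0.373), and −0.15 without betaine C. Edem1 had 5.32, 5.86 and 5.70 in betaine + UVB cultures, 5.54, 5.50 and 5.29 in UVB cultures, 6.11, 6.08 and 5.14 in betaine cultures and 5.14, 5.63 and 5.43 in control cultures. Betaine C was again the lowest of its group, and the UVB cultures were all below detection, so that the fitted difference of Edem1 is not an exact size. It was 0.28 ± 0.17 (adjusted p = 0.397), 0.44 without betaine C (adjusted p = 0.0672) and 0.06 in the authors' processed values.

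Herpud1, an ER-membrane factor of degradation that the unfolded protein response induces, had −0.24 ± 0.07 averaged over UVB states (95% interval −0.38 to −0.09, adjusted p = 0.0747). It had 11.89, 11.82 and 11.62 in betaine + UVB cultures against 11.90, 12.13 and 11.96 in UVB cultures, and 11.62, 11.68 and 11.55 in betaine cultures against 11.89, 11.82 and 11.91 in control cultures, with no overlap in either pair. Herpud1 was called, at −0.23 to −0.24, without background correction (adjusted p = 0.0456), in the authors' processed values (0.0314) and with array weights (0.0236). It was named after its values were seen.

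No member passed the test of the interaction, in which 0 of 10937 genes were called (880, 8.05%, had an unadjusted p under 0.05; array weights called 10 genes and 0 members). An unadjusted p under 0.05 was found for 5 of 35 members (14.3%), Cryab, Hsp90ab1, Hspa5, Hspa9 and Hspb8. Cryab (alphaB-crystallin), a small heat shock protein, had the largest, −1.68 ± 0.50 (adjusted p = 0.574); it was named after its values were seen. It had 9.75, 9.41 and 9.13 in betaine + UVB cultures and 10.58, 11.08 and 10.23 in betaine cultures, and 10.35, 10.48 and 10.11 in UVB cultures and 8.84, 10.41 and 10.26 in control cultures. Control A stood far below the other 2 controls, and the betaine + UVB cultures lay below all of the UVB and betaine cultures.

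The UVB difference of Cryab was −1.21 ± 0.35 with betaine (adjusted p = 0.0687) and 0.48 ± 0.35 without (adjusted p = 0.552). Without control A the difference in UVB against control was −0.02 for Cryab, that in betaine + UVB against betaine was −1.21 (adjusted p = 0.00527), and the interaction was −1.19 (adjusted p = 0.884). Its within-group SD of 0.51 log2 was above that of 99.4% of genes tested, whose median was 0.15.

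Hsp90ab1, the constitutive cytosolic HSP90, had 5.43, 5.34 and 5.42 in betaine + UVB cultures, 5.61, 5.61 and 6.28 in UVB cultures, 5.73, 5.62 and 5.59 in betaine cultures and 5.27, 5.56 and 5.44 in control cultures. It was not well above background in any betaine + UVB culture but was detected in 3 of 3 UVB, 2 of 3 betaine and 1 of 3 control cultures. It was at least 1.18-fold lower in betaine + UVB than in UVB cultures and at least 1.04-fold lower than in betaine cultures (adjusted p = 0.205 and 0.414). UVB C was the highest of the 12, and without it the first bound was 1.01-fold. Since 1 group was below detection, the fitted interaction of Hsp90ab1 is not an exact size; it was −0.66 ± 0.22 (adjusted p = 0.574), −0.44 without UVB C and −0.13 in the authors' processed values. Hspb8 had 12.10, 12.23 and 12.13 in betaine + UVB cultures, 12.29, 12.35 and 12.38 in UVB cultures, 12.30, 12.52 and 12.20 in betaine cultures and 11.87, 12.27 and 12.28 in control cultures, with control A the lowest of the 12. Its interaction was −0.39 ± 0.17 (adjusted p = 0.601).

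**Figure D4:**
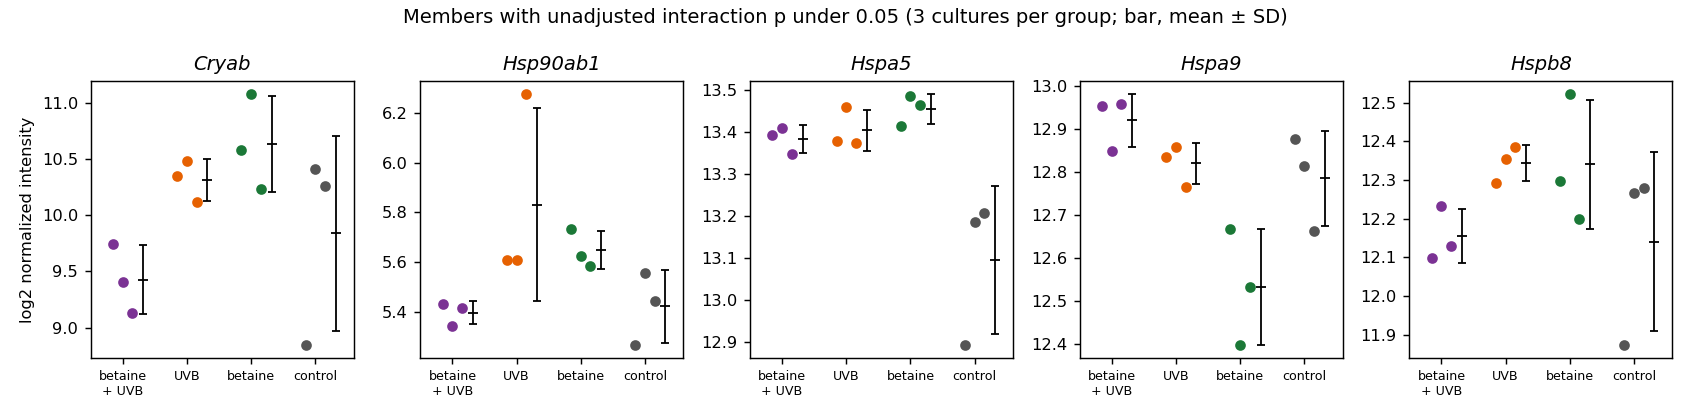
Log2 normalized intensity in each culture (points, 3 per group; bars, mean ± SD) of the 5 members with an unadjusted interaction p under 0.05, with betaine + UVB, UVB, betaine and control from left to right. Control A, the leftmost control point, is the lowest control of Cryab, Hsp90ab1, Hspa5 and Hspb8, at 8.84 for Cryab.

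A wider list of chaperone pathway genes gave 73 tested genes, 34 of 47 cytosolic, 10 of 12 mitochondrial and 29 of 44 ER genes. In the averaged UVB effect 4 of 73 passed (5.48%, beside 11.2% of all genes), Fkbp5 and Hspb7 higher and Bag5 and Sil1 lower. Hspb7 met the detection filter through irradiated cultures alone, so its place in these counts is no support for a difference. UVB against control called 2 of 73 (2.74%, beside 4.96% of all genes), both higher (Fkbp5 and Hspb7). Betaine + UVB against betaine called 4 (5.48%, beside 6.14%), Fkbp5, Unc45a and Atf4 higher and Bag5 lower. Betaine + UVB against UVB called 2 (2.74%, beside 0.887%), Unc45a higher and Hspa4l lower. The averaged betaine effect called 1 (1.37%, beside 3.25%), Hspa4l. None was mitochondrial. Betaine against control and the interaction called 0 of 73 in limma, with 2 (2.74%) and 5 (6.85%) at an unadjusted p under 0.05, beside 11.4 and 8.05% of all genes. The median averaged UVB difference of the 73 was 0.02.

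Fkbp5, an immunophilin that sits on HSP90 and is a known glucocorticoid target, had the largest averaged UVB difference of both lists in the values used here; in the authors' processed values Fkbp5 had 0.38 and Hsp90aa1 0.39. It had 8.04, 7.89 and 8.03 in betaine + UVB cultures and 6.74, 6.56 and 7.23 in betaine cultures, and 7.76, 7.78 and 7.87 in UVB cultures and 7.18, 6.80 and 7.01 in control cultures. The irradiated and unirradiated cultures were separate in both states. The difference was 1.14 ± 0.15 with betaine, 2.21-fold, and 0.81 ± 0.15 without, 1.75-fold (adjusted p = 6.07e-04 and 0.00944). The averaged difference of 0.98 ± 0.11 had an adjusted p of 7.83e-05 and stayed called under every alternative run. Hspb7, a small heat shock protein, had 5.82, 5.38 and 5.14 in betaine + UVB cultures and 5.05, 4.94 and 4.73 in betaine cultures, and 5.72, 6.01 and 5.61 in UVB cultures and 4.97, 4.93 and 4.92 in control cultures. It was detected in 1 of 3 betaine + UVB, 2 of 3 UVB and 0 of 6 unirradiated cultures. By group means, Hspb7 was at least 1.14-fold higher in UVB than in control cultures (adjusted p = 0.00972), and at least 1.05-fold with 1 UVB array left out. With betaine it was not called (adjusted p = 0.0705) and no fold could be bounded. Since Hspb7 met the detection filter through irradiated cultures alone, these values are no support for a difference.

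Bag5, an HSP70 nucleotide exchange factor, had 10.50, 10.50 and 10.60 in betaine + UVB cultures and 10.79, 10.83 and 10.80 in betaine cultures, and 10.50, 10.45 and 10.43 in UVB cultures and 10.67, 10.70 and 10.67 in control cultures. All 6 irradiated cultures lay below all 6 unirradiated ones, and the averaged difference was −0.25 ± 0.05 (adjusted p = 0.00634). The Bag5 call in betaine + UVB against betaine (−0.28 ± 0.07, adjusted p = 0.0373) was lost in 9 of 12 fits that left out 1 array (adjusted p up to 0.136). Sil1, the exchange factor of BiP, had 9.10, 9.14 and 9.04 in betaine + UVB cultures and 9.34, 9.41 and 9.41 in betaine cultures, and 9.09, 9.07 and 9.04 in UVB cultures and 9.56, 9.16 and 9.47 in control cultures. Its averaged difference was −0.31 ± 0.07 (adjusted p = 0.0120), with irradiated cultures lower throughout.

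Hspa4l, an HSP110-type exchange factor that was first described as induced by osmotic stress in mouse, had 9.66, 9.73 and 9.46 in betaine + UVB cultures against 10.52, 10.59 and 10.30 in UVB cultures. Without UVB it had 9.49, 9.73 and 9.60 in betaine cultures against 9.94, 10.39 and 10.33 in control cultures. All 6 betaine-grown cultures lay below all 6 others. The difference was −0.86 ± 0.13 in irradiated cultures, 1.81-fold lower (adjusted p = 0.0115), and −0.61 ± 0.13 in unirradiated ones (adjusted p = 0.0566). The averaged betaine difference was −0.73 ± 0.09 (adjusted p = 0.00142) and stayed called under every alternative run, while the call in irradiated cultures was lost without UVB A, UVB B or betaine + UVB C (adjusted p = 0.0520 to 0.0714).

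Unc45a, a myosin-folding co-chaperone of HSP90, had 9.61, 9.70 and 9.80 in betaine + UVB cultures, 9.20, 9.28 and 9.26 in UVB cultures, 9.35, 9.24 and 9.39 in betaine cultures and 9.39, 9.50 and 9.23 in control cultures. The betaine + UVB cultures lay above the other 9. The difference was 0.45 ± 0.09 from UVB and 0.38 ± 0.09 from betaine (adjusted p = 0.0386 and 0.0289); the Unc45a calls were lost in 7 and 4 of 12 fits that left out 1 array, with adjusted p values up to 0.203 and 0.132. Atf4, the transcription factor translated when PERK is active, had 0.44 ± 0.12 in betaine + UVB against betaine (adjusted p = 0.0485). It had 12.39, 12.33 and 12.41 in betaine + UVB cultures and 11.82, 11.77 and 12.23 in betaine cultures. UVB cultures had 12.18, 12.27 and 12.44 and control cultures 12.23, 12.14 and 12.19. The Atf4 difference was 0.11 ± 0.12 in UVB against control (adjusted p = 0.715) and −0.25 ± 0.12 in betaine against control (adjusted p = 0.456). The Atf4 call was lost in 10 of 12 fits that left out 1 array.

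**Figure D5:**
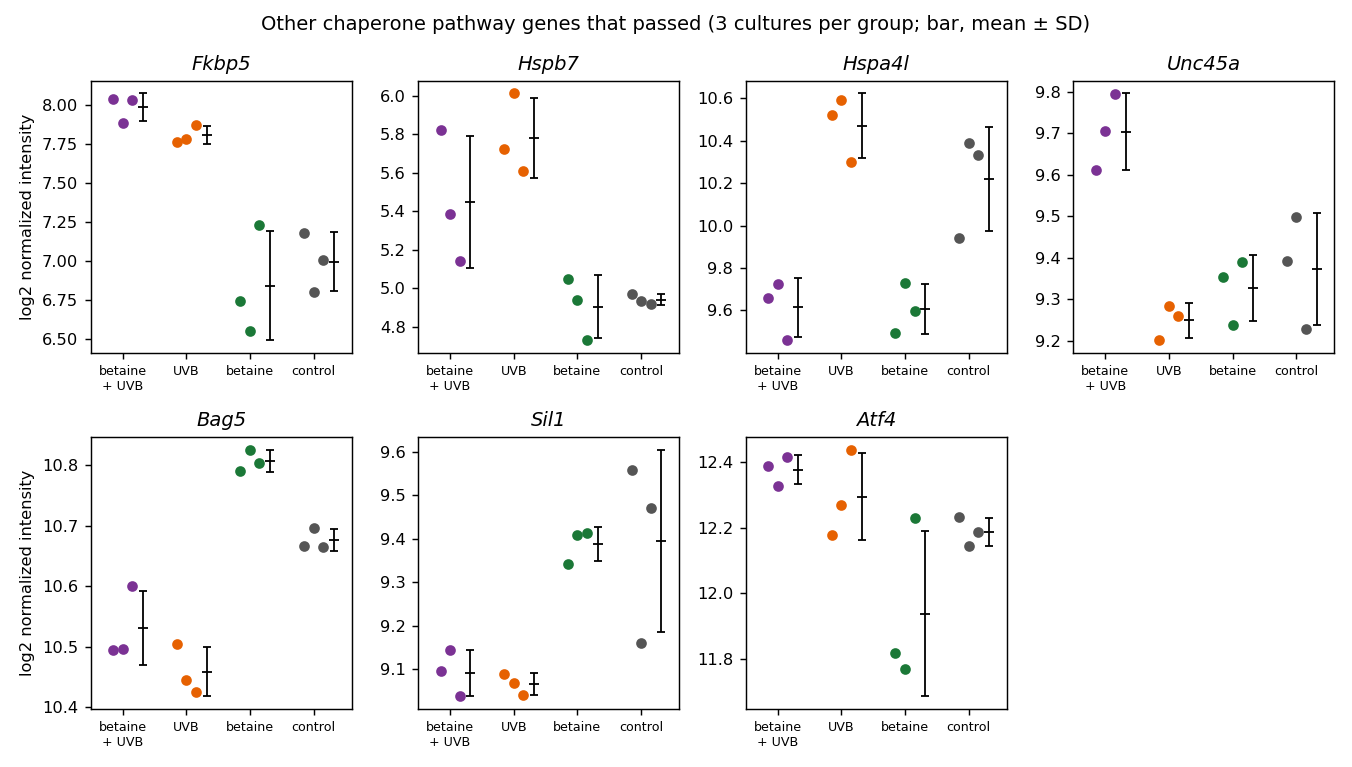
Log2 normalized intensity in each culture (points, 3 per group; bars, mean ± SD) of the 7 genes of the wider chaperone list that were called, with betaine + UVB, UVB, betaine and control from left to right. Fkbp5 is higher in all irradiated cultures, Bag5 and Sil1 are lower in them, and Hspa4l is lower in all betaine-grown cultures.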

How the data were processed

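Total RNA of 12 cultures (400 ng each) was hybridized to Illumina RatRef-12 arrays, 1 per culture, per the labels. The deposited table holds, per the file headers, an intensity and a detection p-value per probe; the p-values move in steps of 1 in 825. The authors' deposited processed values were taken as log2 from their range, by a normalization not given in the sources used here. The submitters' processing notes name R 2.11 and limma.

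Intensities were background-corrected, quantile-normalized and taken to log2 with neqc (offset 16) in limma 3.58.1 (R 4.3.3), which shrinks differences of probes near background. Probes detected (p-value below 0.05) on 3 or more of 12 arrays were kept (11255 with a gene name), and each of 10937 genes was read from its probe with the highest mean. Differences were tested with lmFit and eBayes (8 residual and 3.83 prior degrees of freedom), with a mean per group and no block. Of 18 same-letter pairs of cultures, 8 correlated over 0.1 in their deviations from the group mean. Across letters, control A correlated with betaine C, UVB C and betaine + UVB C at 0.38, 0.35 and 0.44. A batch that runs across groups under different letters was not tested. Where a gene was below detection in every culture of a group, an "at least" fold sets the other group's mean against, per array, the higher of its own signal and the lowest signal among detected probes. This bound compares means and takes no account of the spread among cultures.

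The members and both gene lists were chosen with earlier results of these data known. Members called in any of 7 comparisons, and the 2 largest per compartment in each averaged effect, are given by array; genes of the wider list are named only where called. Hsp90ab1, Hspa9, Hsp90b1, Ern1, Edem1 and Sel1l were reached through an older synonym, which makes their probes less certain, and Ahsa1 and Sdf2l1 through the gene ID (GRCr8 table, names only). Promoters were read from RefSeq, GRCr8. The number of arrays limits the precision. Alternatives were other background, scaling, filter, probe, weight and sample choices; the fit without control A and betaine C was added after the data were seen.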

Additional observations from a re-analysis of the deposited data

How the results depend on the processing

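With 3 arrays per group and differences mostly under 0.5 log2, the counts of members called moved with the processing. The share of all genes called, given in brackets, moved too, and the causes were not tested. UVB against control called 2 of 35 (4.96% of all genes). It called 6 without background correction (5.53%), 5 in the authors' processed values (5.69%), 4 with a stricter detection filter (6.38%) and 4 with array weights (7.59%). It called 1 with no detection filter (2.14%), 1 without control A and betaine C together (4.96%), and 0 with only the 2 groups compared (3.34%). Leaving out 1 array gave 0 to 4 (2.88 to 6.48%), with 0 without control A, control B, UVB B or UVB C (2.88 to 3.29%). Betaine + UVB against betaine called 3 (6.14%). It called 5 without background correction (7.07%), 5 in the authors' values (6.95%), 9 with array weights (20.2%) and 5 without control A and betaine C (11.1%). Leaving out 1 array gave 1 to 5, with 1 without betaine + UVB A, B or C (3.35 to 3.96%) and 5 without control A (6.65%). The averaged UVB effect called 6 (11.2%), against 10 in the authors' values (12.8%), 3 under median scaling (12.9%) and 12 with array weights (21.8%). It called 4 to 8 with 1 array left out (8.30 to 13.9%). The averaged betaine effect called 0 (3.25%), against 1 (Herpud1) without background correction (4.19%) and in the authors' values (4.25%), and 5 with array weights (11.6%). Betaine against control called 0 (0.896%), against 2 with array weights (3.93%). Betaine + UVB against UVB called 0 (0.887%), against 1 (Dnajb4) with array weights (6.97%). It called 1 (Cryab) with only the 2 groups compared (2.91%) or without control A and betaine C (5.13%). The interaction called 0 members under every alternative run.

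Same-letter cultures of different groups had correlations of −0.384 to 0.339, so a pairing by letter did not hold in every group. With the replicate block UVB against control called 1 of 35, Eif2ak3 (4.02% of all genes), betaine + UVB against betaine 2 (5.77%) and the averaged UVB effect 5 (10.1%). Of 11 calls on members, 6 were lost with at least 1 array left out and 0 changed sign under any alternative; Hspa9 in betaine + UVB against betaine was also lost under median scaling (adjusted p = 0.0594). Median scaling moved the median of all genes in UVB against control to −0.11 and in the interaction to 0.11, and the share of higher genes among all calls to 32.1 from 60.0% in UVB against control, to 37.3 from 54.1% in the averaged UVB effect and to 16.2 from 40.8% in betaine against control.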
